A study of Saccharomyces cerevisiae with 18 samples.

Results

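The antioxidant enzymes of budding yeast were followed through ribosome footprints in cells that lack wobble-uridine tRNA modifications, ribosome-associated quality control, or both. The set comprised 10 genes, chosen by name for the function of their products: the catalase genes *CTT1* and *CTA1*, the superoxide dismutase genes *SOD1* and *SOD2*, the peroxiredoxin genes *TSA1*, *TSA2* and *AHP1*, the glutathione peroxidase gene *GPX2*, the thioredoxin gene *TRX2* and the thioredoxin reductase gene *TRR1*. All 10 were among the 6085 genes with monosome counts, the 5767 genes with disome counts and the 5693 genes in both tables. In ribosome profiling, pieces of mRNA shielded from nuclease by ribosomes are sequenced. A monosome footprint comes from 1 ribosome, whereas a disome footprint comes from a pair of ribosomes stacked against each other, as after a collision. A monosome level depends both on how much mRNA there is and on how densely ribosomes load it, and these cannot be told apart without mRNA data, which were not used here.

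All strains were BY4741 derivatives grown in rich medium (YPD) without a stress treatment, and all carried MATa his3∆1 leu2∆0 ura3∆0. The wild type was also labelled met15∆0, a mark absent from the other genotype labels. The *hel2*∆ strain carried hel2∆::LEU2 and lacked the ubiquitin ligase that senses collided ribosomes. The *ncs2*∆*elp6*∆ strain carried ncs2∆::HIS3MX and elp6∆::URA3 and lacked factors that modify the wobble uridine of certain tRNAs, and the *ncs2*∆*elp6*∆*hel2*∆ strain carried all of these deletions. The strains therefore also differed in their nutritional marker genes, an effect that cannot be told apart from that of the deletions. Monosomes were profiled in 10 libraries and disomes in 8. Wild type and *ncs2*∆*elp6*∆ had 3 monosome libraries each, the strains without *HEL2* had 2 each, and every strain had 2 disome libraries.

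Reactive oxygen species arise from respiration and other metabolism even without added oxidants. Superoxide dismutases convert superoxide into hydrogen peroxide, and catalases, peroxiredoxins and glutathione peroxidases remove the peroxide. Peroxiredoxins become oxidised on a cysteine as they work and are reduced again by thioredoxin, which thioredoxin reductase recharges with electrons from NADPH. Many of these genes are induced under oxidative stress by the transcription factors Yap1 and Skn7, and *CTT1* is also a well-known target of the general stress factors Msn2 and Msn4.

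Monosome libraries held between 2381991 and 24884873 counted footprints and disome libraries between 845707 and 2521397. Every monosome library without *HEL2* held at most 4352295 counts and every other one at least 11702547, so that depth followed the *HEL2* genotype. *HEL2* itself had 880 to 1990 monosome counts where present and 1 to 6 where deleted. *ELP6* had 65 to 277 and 0 to 3 counts, and *NCS2* 64 to 274 and 0 to 26 counts. The 10 antioxidant genes together took between 0.789% and 1.04% of all monosome counts, with the 4 lowest shares in the 4 libraries without *HEL2*.

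These enzymes spanned nearly the whole range of monosome footprint levels. In the text that follows, levels are CPM (counts scaled to a common library size), adjusted with TMM factors over all 18 libraries, and levels of different genes are set against each other only per kilobase of coding sequence. In wild type (n = 3), *AHP1*, a peroxiredoxin with a preference for organic peroxides, had 8839 CPM per kilobase and rank 22 of 5716 genes with a known length. *TSA1*, the major cytosolic peroxiredoxin, followed with 4406 CPM per kilobase (rank 48), and *SOD1*, the cytosolic copper-zinc superoxide dismutase, with 3705 (rank 66). *TRX2*, one of a pair of cytosolic thioredoxins, stood at rank 147 with 1748 CPM per kilobase.

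The middle of the range held *TRR1*, the cytosolic thioredoxin reductase, with 641 CPM per kilobase (rank 294), *GPX2*, a glutathione peroxidase-like protein, with 292 (rank 526) and *SOD2*, the mitochondrial manganese superoxide dismutase, with 247 (rank 616). The other 3 genes had far lower footprint levels. *TSA2*, the minor paralogue of *TSA1*, had 13.2 CPM per kilobase (rank 3590), *CTT1*, the cytosolic catalase, 0.859 (rank 5170) and *CTA1*, the peroxisomal catalase known to be needed during growth on fatty acids, 0.111 (rank 5516). No neighbours in this order overlapped in their wild-type libraries, although *GPX2* and *SOD2* were close. The order of the 7 abundant genes was not the same in every strain: *SOD1* stood above *TSA1* in *ncs2*∆*elp6*∆ (ranks 35 and 44) and in *ncs2*∆*elp6*∆*hel2*∆ (ranks 46 and 63), and *SOD2* above *GPX2* in *ncs2*∆*elp6*∆ (ranks 620 and 677), where the libraries of the latter pair overlapped.

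**Figure D1:**
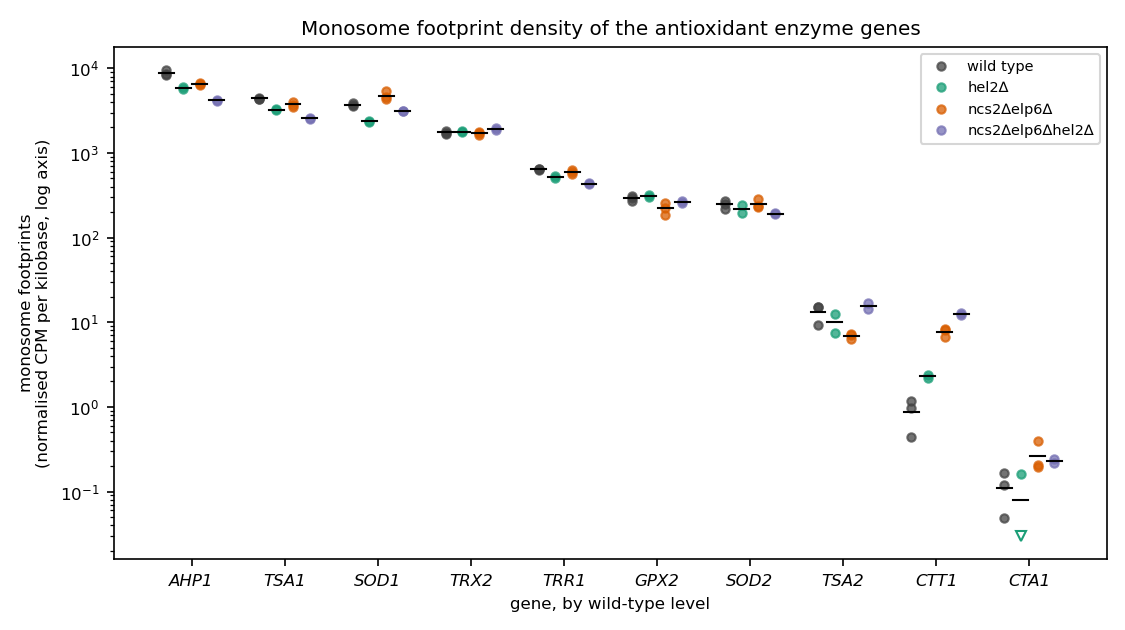
Monosome footprint density of the 10 antioxidant enzyme genes in each of the 10 monosome libraries, as normalised CPM per kilobase on a log axis, coloured by strain, with black bars for strain means and an open triangle at the lower edge for a library with 0 counts. In wild type the means run from 8839 for *AHP1* to 0.111 for *CTA1*, and the strain means of *CTT1* lie widest apart.

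Positions are those of the R64 assembly (sacCer3). *CTT1* (YGR088W) is on chromosome VII at 654634 to 656322 and *TRX2* (YGR209C) on the same chromosome at 912913 to 913227. Chromosome IV holds *CTA1* (YDR256C, 968133 to 969680), *TRR1* (YDR353W, 1183299 to 1184258) and *TSA2* (YDR453C, 1365072 to 1365662). *SOD1* (YJR104C) is on chromosome X at 622550 to 623014, *SOD2* (YHR008C) on VIII at 122889 to 123590, *GPX2* (YBR244W) on II at 707528 to 708016, *AHP1* (YLR109W) on XII at 368781 to 369311 and *TSA1* (YML028W) on XIII at 220138 to 220728. Footprints were assigned to their coding sequences. Footprints that match more than 1 gene were not counted, so that levels of the paralogues *TSA1* and *TSA2*, and of *TRX2* and its twin *TRX1*, are uncertain by the share of sequence they have in common.

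The first comparison asked how the lack of the tRNA modifications changed the monosome footprints of these enzymes. In *ncs2*∆*elp6*∆ against wild type, *CTT1* footprints rose 8.59-fold and *SOD1* footprints 1.26-fold, while those of *TSA1*, *TSA2*, *AHP1* and *GPX2* fell, the decreases of *TSA1* and *GPX2* not with library totals alone. Thus 6 of the 9 genes tested were called (edgeR, adjusted p under 0.05), in a comparison that called 53.0% of all 5281 genes tested, 26.6% higher and 26.4% lower. *CTA1* had too few counts to be tested. The median log2 change of the 9 genes was -0.14, against 0.02 over all genes.

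*CTT1* had 1.97, 0.744 and 1.64 normalised CPM in the 3 wild-type libraries, from between 8 and 23 counts. It had 11.3, 14.3 and 13.6 CPM in the 3 *ncs2*∆*elp6*∆ libraries, from 200 to 315 counts. The groups lay far apart, with the lowest *ncs2*∆*elp6*∆ library well above the highest wild-type one. The log2 change was 3.10 ± 0.22 (SE; adjusted p = 1.33e-08 in edgeR), and 99.7% of the tested genes had a lower change.

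*SOD1* had 1788, 1729 and 1652 CPM in wild type and 2034, 2104 and 2507 CPM in *ncs2*∆*elp6*∆. The groups did not overlap, and the third *ncs2*∆*elp6*∆ library was the highest. The log2 change was 0.33 ± 0.08 (SE; adjusted p = 0.00271 in edgeR). *SOD2*, in contrast, had overlapping values of 155 to 189 CPM in wild type and 160 to 199 CPM in *ncs2*∆*elp6*∆ (log2 change -0.02 ± 0.09, edgeR, adjusted p = 0.900).

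Among the peroxiredoxins, *AHP1* had 4559, 5037 and 4484 CPM in wild type and 3338, 3606 and 3423 CPM in *ncs2*∆*elp6*∆. Every *ncs2*∆*elp6*∆ library was below every wild-type library, with a log2 change of -0.47 ± 0.07 (SE; adjusted p = 6.47e-05 in edgeR). *TSA2* had 8.91, 5.48 and 8.94 CPM in wild type and 3.79, 4.15 and 4.29 CPM in *ncs2*∆*elp6*∆, again without overlap, and its log2 change of -0.98 ± 0.19 (SE) left 0.508 of the wild-type level (adjusted p = 3.93e-04). *TSA1* had 2578, 2591 and 2642 CPM in wild type and 2208, 2081 and 2393 CPM in *ncs2*∆*elp6*∆, with a smaller log2 change of -0.25 ± 0.07 (adjusted p = 0.00794). *TSA1* lost its call without the second *ncs2*∆*elp6*∆ library (adjusted p = 0.0560).

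*GPX2* was the other enzyme with a lower level. It had 151, 144 and 134 CPM in wild type and 125, 110 and 90.2 CPM in *ncs2*∆*elp6*∆, with a log2 change of -0.42 ± 0.10 (SE; adjusted p = 0.00340 in edgeR). The pair that keeps peroxiredoxins reduced did not pass the test: *TRX2* had a log2 change of -0.06 ± 0.07 (adjusted p = 0.490) with overlapping libraries, and *TRR1* of -0.14 ± 0.08 (adjusted p = 0.0979). *TRR1* had 567, 538 and 603 CPM in *ncs2*∆*elp6*∆, each below the 610 to 622 CPM of wild type, and was called without the third *ncs2*∆*elp6*∆ library (adjusted p = 0.0467).

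The modest changes depended on how libraries were scaled. With library totals alone, without TMM factors, the median of all genes moved to 0.27 in this comparison, 0.27 in *hel2*∆ against wild type, 0.14 in *ncs2*∆*elp6*∆*hel2*∆ against *ncs2*∆*elp6*∆ and 0.13 against *hel2*∆, so that values are best read against that median. On this scale *ncs2*∆*elp6*∆ had 4 antioxidant genes higher and 2 lower than wild type: *CTT1*, *SOD1*, *SOD2* (log2 0.24) and *TRX2* (log2 0.20) were higher, *TSA2* and *AHP1* were lower, and *TSA1*, at 0.00025, and *GPX2*, at -0.16, were not called. *CTT1*, *SOD1*, *TSA2* and *AHP1* thus passed the test in the same direction under both scalings.

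**Figure D2:**
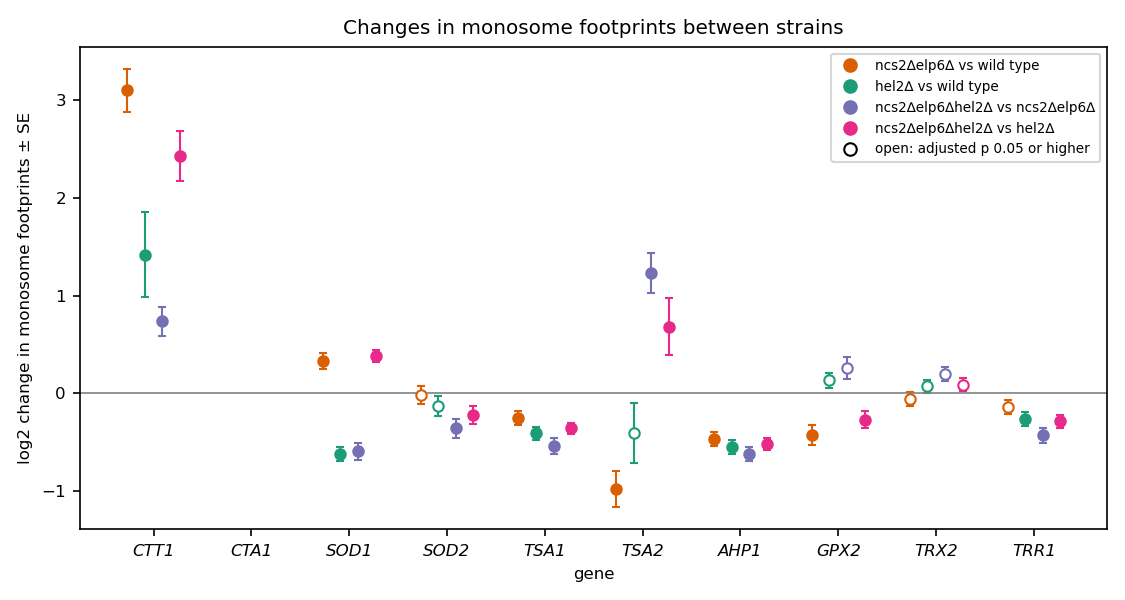
Log2 change in monosome footprints of each antioxidant enzyme gene, with its standard error, in 4 comparisons of strains (colours), with filled points for an adjusted p under 0.05 and open points otherwise; *CTA1* was not tested. *CTT1* is above 0 in all 4 comparisons and *AHP1* and *TSA1* are below 0 in all 4 (with library totals alone *TSA1* is at 0.00025 in *ncs2*∆*elp6*∆ against wild type), while *SOD1* is above 0 where the tRNA modifications are lost and below 0 where *HEL2* is lost.

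The second question was what the loss of *HEL2* did to these enzymes when tRNAs were modified. In *hel2*∆ against wild type, *CTT1* rose and *SOD1*, *TSA1*, *AHP1* and *TRR1* fell, which made 5 of 9 genes called where 31.9% of 5225 genes were called, 14.7% higher and 17.2% lower (edgeR). Scaled by library totals alone, the split was 3 higher and 3 lower: *CTT1*, *GPX2* (log2 0.38) and *TRX2* (log2 0.32) higher, and *SOD1*, *TSA1* and *AHP1* lower. The wild-type libraries took part in both comparisons above, which therefore are not independent.

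*SOD1* had 1069 and 1124 CPM in *hel2*∆, below all 3 wild-type libraries, at 0.652 of the wild-type level (log2 change -0.62 ± 0.07, edgeR, adjusted p = 9e-06). *AHP1* had 3064 and 3202 CPM in *hel2*∆, also below every wild-type library, with a log2 change of -0.55 ± 0.07 (adjusted p = 3.1e-05). *TSA1* had 1898 and 1929 CPM and a log2 change of -0.41 ± 0.07 (adjusted p = 2.42e-04). The 3 antioxidant enzymes with the highest footprint levels were thus all called lower in *hel2*∆, beside 17.2% of all genes called lower.

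*TRR1* had 491 and 512 CPM in *hel2*∆ and 610 to 622 CPM in wild type (log2 change -0.26 ± 0.07, adjusted p = 0.00970). Its call was lost with library totals alone (log2 -0.018) and without either *hel2*∆ library (adjusted p = 0.155 and 0.103). *CTT1* had 4.06 and 3.72 CPM in *hel2*∆, from 12 and 15 counts, above all wild-type libraries. Its log2 change was 1.42 ± 0.44 (edgeR, adjusted p = 0.0204). That call was lost with DESeq2 (adjusted p = 0.0596), without the second wild-type library (adjusted p = 0.0518) and without either *hel2*∆ library (adjusted p = 0.155 and 0.158).

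*TSA2* had 7.45 and 4.47 CPM in *hel2*∆, within or below the wild-type range, and was not called (log2 change -0.40 ± 0.31, adjusted p = 0.343). *SOD2* (log2 change -0.13), *GPX2* (0.13) and *TRX2* (0.07) were not called either. Thinning every monosome library to 2381991 counts left 5 genes called here.

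The third comparison deleted *HEL2* in cells that already lacked the tRNA modifications. In *ncs2*∆*elp6*∆*hel2*∆ against *ncs2*∆*elp6*∆, *CTT1* and *TSA2* rose, and *SOD1*, *SOD2*, *TSA1*, *AHP1* and *TRR1* fell. Called genes numbered 7 of 9 (edgeR), beside 24.3% of the 5318 genes tested, 12.0% higher and 12.2% lower. The median log2 change of the 9 genes was -0.36, against 0.00425 over all genes. Library totals alone gave 4 higher, *CTT1*, *TSA2*, *TRX2* (log2 0.34) and *GPX2* (log2 0.40), and 4 lower, with *SOD2* no longer called (log2 -0.22, adjusted p = 0.0882).

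*CTT1* had 20.5 and 21.9 CPM in *ncs2*∆*elp6*∆*hel2*∆, from 61 and 116 counts, above all 3 *ncs2*∆*elp6*∆ libraries. Its log2 change was 0.74 ± 0.15 (edgeR, adjusted p = 0.00225), or 0.0541 without the second *ncs2*∆*elp6*∆*hel2*∆ library. *TSA2* had 8.42 and 9.99 CPM, which was 2.34-fold the *ncs2*∆*elp6*∆ level (log2 change 1.23 ± 0.21, adjusted p = 5.58e-04). The *TSA2* libraries of *ncs2*∆*elp6*∆*hel2*∆ lay within or just above the wild-type range of 5.48 to 8.94 CPM. These genes with low footprint levels were the only antioxidant genes called higher in this comparison.

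*AHP1* had 2203 and 2238 CPM in *ncs2*∆*elp6*∆*hel2*∆, the lowest of the 10 monosome libraries (log2 change -0.62 ± 0.07, edgeR, adjusted p = 2.2e-05). *TSA1* had 1538 and 1489 CPM, also the lowest (log2 change -0.54 ± 0.08, adjusted p = 1.66e-04). *TRR1* followed with 419 and 415 CPM against 538 to 603 CPM in *ncs2*∆*elp6*∆ (log2 change -0.43 ± 0.08, adjusted p = 8.27e-04). The main cytosolic peroxiredoxin, its relative *AHP1* and the reductase of their shared electron donor were therefore at their minimum in the same libraries.

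*SOD1* had 1457 and 1441 CPM in *ncs2*∆*elp6*∆*hel2*∆, below all *ncs2*∆*elp6*∆ libraries, with a log2 change of -0.59 ± 0.09 (edgeR, adjusted p = 2.06e-04). *SOD2* had 132 and 136 CPM against 160 to 199 CPM and a smaller change of -0.36 ± 0.10 (adjusted p = 0.0145), which was lost without either *ncs2*∆*elp6*∆*hel2*∆ library (adjusted p = 0.0902 and 0.0723). *GPX2* (log2 change 0.26, adjusted p = 0.119) and *TRX2* (0.20, adjusted p = 0.0604) were not called. Thinning to equal depth again left the count at 7.

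*ncs2*∆*elp6*∆*hel2*∆ was also set against *hel2*∆, to see the loss of the tRNA modifications without Hel2. *CTT1* rose 5.40-fold, *SOD1* 1.30-fold and *TSA2* 1.61-fold, and *SOD2*, *TSA1*, *AHP1*, *GPX2* and *TRR1* fell, so that 8 of 9 genes were called beside 44.2% of 5027 genes, 22.5% higher and 21.7% lower (edgeR). The split with library totals alone was 4 higher and 3 lower. The log2 change was 2.43 ± 0.26 for *CTT1* (edgeR, adjusted p = 8.31e-12), 0.38 ± 0.06 for *SOD1* (adjusted p = 7.03e-07) and -0.52 ± 0.06 for *AHP1* (adjusted p = 7.55e-11). The calls of *TSA2* (0.68 ± 0.29, adjusted p = 0.0471) and *SOD2* (-0.22 ± 0.09, adjusted p = 0.0427) were close to the threshold. Without the second *hel2*∆ library their adjusted p-values were 0.578 and 0.844, and 4 genes were called. *GPX2* lost its call with DESeq2 (adjusted p = 0.123), with library totals alone (0.176), with all 4 strains in the fit (0.100) and without either *hel2*∆ library (0.0558 and 0.209), and *TRR1* without the second *hel2*∆ library (0.0568). With the replicate number as a block *TSA2* (0.0827) and *SOD2* (0.0959) were not called. Neither was called with DESeq2 (0.439 and 0.295) or with all 4 strains in the fit (0.121 and 0.173). *TSA2* also lost its call with upper-quartile scaling (0.0622) and thinning to equal depth (0.439), and *SOD2* with library totals alone (0.434). Thinning left 7 genes called here.

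Whether the effect of *HEL2* differed between the backgrounds was tested as the difference of the changes, with all 4 strains in the fit. Of the 9 genes tested, 1 was called, as were 5.29% of 5354 genes, 2.99% with a positive and 2.30% with a negative difference. This gene was *TSA2*, whose *HEL2*-dependent change was 1.64 ± 0.37 higher on the log2 scale without the tRNA modifications than with them (edgeR, adjusted p = 0.0141). The other 8 genes gave no call, among them *SOD1*, for which the difference was only 0.03 ± 0.11. For *SOD1* and *AHP1* the HEL2-dependent decreases were -0.62 and -0.55 with modified tRNAs and -0.59 and -0.62 without them.

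*CTA1* contributed 0 to 9 monosome counts per library. The 3 wild-type libraries held 3, 2 and 1 counts, the *hel2*∆ libraries 0 and 1, the *ncs2*∆*elp6*∆ libraries 9, 6 and 9 and the *ncs2*∆*elp6*∆*hel2*∆ libraries 1 and 2. As levels these were 0.257, 0.186 and 0.0745 CPM in wild type and 0.322, 0.30 and 0.612 CPM in *ncs2*∆*elp6*∆, which did not overlap but rest on so few counts that the gene was not tested.

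Disome footprints were then used to ask how often ribosomes were stacked on the same mRNAs. For each same-numbered pair of libraries, the ratio of disome to monosome level was taken on the log2 scale, with a prior count of 2. The median over 4415 well-covered genes was close to 0 in every strain, between 0.00836 in *ncs2*∆*elp6*∆ and 0.0722 in *hel2*∆. Well covered meant a mean of at least 100 monosome counts over the 10 monosome libraries. In wild type, *CTT1* had ratios of 2.45 and 4.91, from 23 and 8 monosome counts, too few to place it among these genes. In the second wild-type pair, *CTT1* had 34 disome counts against 8 monosome counts although the monosome library was several times deeper.

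*TRR1* (0.79 and 1.09), *SOD2* (0.73 and 1.33), *SOD1* (0.45 and 1.02) and *TRX2* (0.66 and 0.71) also had wild-type ratios above the median, higher than those of between 79.5% and 88.8% of genes. *TSA1* (0.11 and 0.27), *AHP1* (-0.27 and -0.14) and *GPX2* (-0.11 and -0.86) were nearer to or below it. Monosome level and disome ratio were thus not in the same order: *AHP1*, with the highest monosome level of the 10 genes, had a ratio that exceeded 38.6% of genes. *TSA2*, with 14 and 2 disome counts, and *CTA1*, with 0 and 4, had too few disomes to place.

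**Figure D3:**
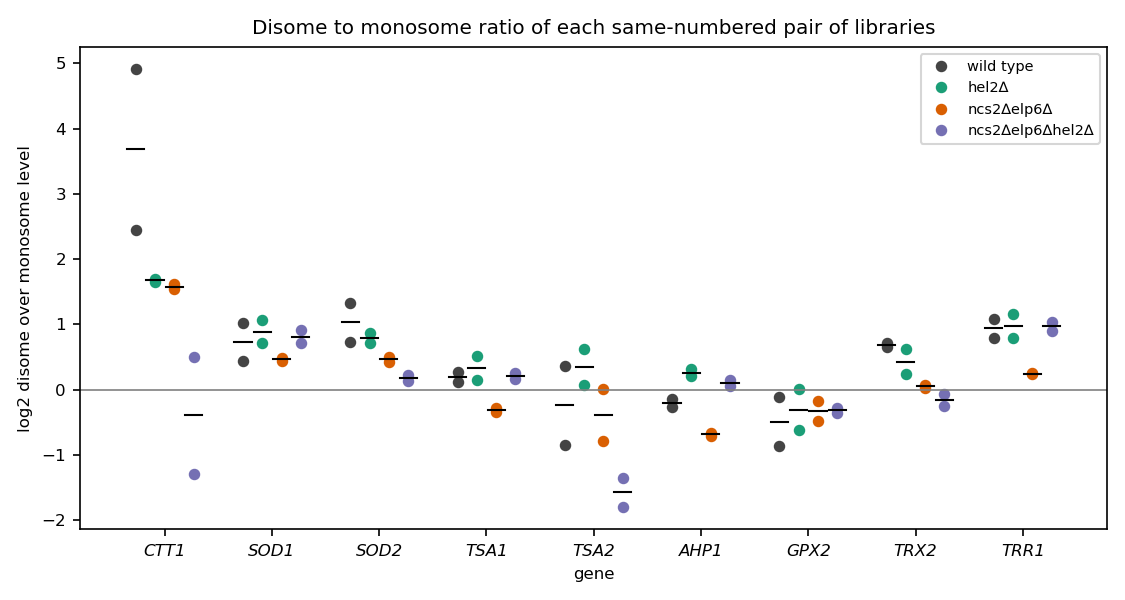
Log2 ratio of disome to monosome level in each same-numbered pair of libraries (2 pairs per strain, points) with the mean of each strain (black bars), for 9 antioxidant enzyme genes; *CTA1* is left out for its 0 to 4 disome counts. The *ncs2*∆*elp6*∆ pairs of *TSA1*, *AHP1* and *TRR1* lie below those of the other 3 strains, and those of *CTT1* in wild type reach 2.45 and 4.91.

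Disome enrichment, the change in disomes beyond the change in monosomes, was lower for most antioxidant enzymes in *ncs2*∆*elp6*∆ than in wild type. It fell for *CTT1*, *SOD2*, *TSA1*, *AHP1*, *TRX2* and *TRR1* and rose for none, so that 6 of 10 genes were called, beside 18.7% of 5389 genes in either direction and 8.68% lower. The median log2 change of the 10 genes was -0.64, against -0.00399 over all genes. On library totals alone the count was again 0 higher and 6 lower.

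*TRR1* had ratios of 0.25 and 0.24 in *ncs2*∆*elp6*∆, both below the wild-type pairs, and its enrichment changed by -0.68 ± 0.13 (log2, SE; adjusted p = 0.00177 in edgeR). *TRX2* had ratios of 0.07 and 0.03 and a change of -0.61 ± 0.11 (adjusted p = 0.00113). The thioredoxin and its reductase, neither of which was called in monosomes, thus both carried fewer disomes per monosome.

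*TSA1* had ratios of -0.35 and -0.28 in *ncs2*∆*elp6*∆ and a change of -0.50 ± 0.12 (adjusted p = 0.00681). *AHP1* had ratios of -0.66 and -0.71 and a change of -0.45 ± 0.13 (adjusted p = 0.0204). The pairs of both peroxiredoxins were below those of wild type. Leaving out the second *ncs2*∆*elp6*∆ disome library raised the adjusted p of *TSA1* to 0.0529 and that of *AHP1* to 0.0687. *AHP1* was also not called without the first *ncs2*∆*elp6*∆ disome library (0.111) or the second *ncs2*∆*elp6*∆ monosome library (0.0528).

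*SOD2* had ratios of 0.51 and 0.42 and a change of -0.71 ± 0.20 (edgeR, adjusted p = 0.0180). That call was lost without the second wild-type disome library (adjusted p = 0.0569) and without either *ncs2*∆*elp6*∆ disome library (0.0737 and 0.0970). It was also lost when each same-numbered pair of a monosome and a disome library was a block (-0.58, adjusted p = 0.0535). Among the 6 called genes *CTT1* had the widest change, -2.01 ± 0.49 (adjusted p = 0.00810), with *ncs2*∆*elp6*∆ ratios of 1.62 and 1.55 from 28 and 45 disome counts. Its change was -1.24 (adjusted p = 0.129) without the second wild-type disome library, the one with 34 counts. In the disome libraries alone *CTT1* was not lower in *ncs2*∆*elp6*∆, with 33.5 and 40.5 normalised CPM against 10.1 and 26.1 in wild type.

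Outside these 6 genes, *SOD1* had a change of -0.36 ± 0.17 (adjusted p = 0.172). It was called, at -0.65 (adjusted p = 0.00183), when the first wild-type disome library was left out. *GPX2* (0.23 ± 0.28), *TSA2* (-0.93 ± 1.11) and *CTA1*, with 0 to 4 disome counts in these libraries, were not called.

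In *hel2*∆ against wild type, 0 of 9 antioxidant genes were called for disome enrichment (edgeR), beside 5.20% of 4999 genes, 2.40% higher and 2.80% lower. DESeq2 also called 0, and 2 genes had an unadjusted p under 0.05 in edgeR: *CTT1* (log2 change -2.11, adjusted p = 0.0886) and *AHP1* (0.37, adjusted p = 0.230). *TRR1* had *hel2*∆ ratios of 0.79 and 1.16, overlapping those of wild type, and *TSA1* ratios of 0.15 and 0.51. *CTT1* was called, at -2.67 (adjusted p = 0.0225), when the first wild-type disome library was left out.

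When *HEL2* was deleted from *ncs2*∆*elp6*∆ cells, disome enrichment rose for *SOD1*, *TSA1*, *AHP1* and *TRR1* and fell for *CTT1*. These were 5 of 9 genes called, beside 17.1% of 5017 genes, 8.95% higher and 8.17% lower (edgeR). *TRR1* had ratios of 1.04 and 0.91 in *ncs2*∆*elp6*∆*hel2*∆, above both *ncs2*∆*elp6*∆ pairs and within the wild-type range, with a change of 0.73 ± 0.11 (adjusted p = 1.04e-05). *AHP1* had ratios of 0.14 and 0.06 and a change of 0.74 ± 0.10 (adjusted p = 5.3e-07). *TSA1* had ratios of 0.26 and 0.16 and a change of 0.54 ± 0.10 (adjusted p = 2.05e-04).

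For *AHP1* the higher ratio reflected both kinds of library. Its disome level went from 2109 and 2209 CPM in *ncs2*∆*elp6*∆ to 2429 and 2331 CPM in *ncs2*∆*elp6*∆*hel2*∆, while its monosome level fell. For *TSA1* the disome level, 1732 and 1710 CPM in *ncs2*∆*elp6*∆ and 1839 and 1663 CPM in *ncs2*∆*elp6*∆*hel2*∆, overlapped between the strains, so that its change in enrichment lay in the monosomes. For *TRR1* the disome level rose from 674 and 634 CPM to 860 and 777 CPM without overlap, while its monosome level fell, as for *AHP1*.

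*SOD1* had ratios of 0.91 and 0.71 in *ncs2*∆*elp6*∆*hel2*∆ against 0.49 and 0.45 in *ncs2*∆*elp6*∆, and a change of 0.40 ± 0.11 (edgeR, adjusted p = 0.0102). Its disome level was lower, not higher, in *ncs2*∆*elp6*∆*hel2*∆ (2733 and 2355 CPM against 2850 and 2864), a smaller decrease than that of its monosomes. *SOD1* lost its call without either *ncs2*∆*elp6*∆ disome library (adjusted p = 0.0697 and 0.0621) or without the first *ncs2*∆*elp6*∆*hel2*∆ one (0.119). *CTT1* moved the opposite way, with ratios of -1.29 and 0.50 and a change of -1.77 ± 0.43 (adjusted p = 0.00459). The *ncs2*∆*elp6*∆*hel2*∆ disome libraries held only 8 and 37 *CTT1* counts, and the call was lost without the second *ncs2*∆*elp6*∆ disome library (adjusted p = 0.0839).

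*SOD2* (-0.24), *TRX2* (-0.24), *GPX2* (-0.15) and *TSA2* (-1.15) were not called in this comparison. *TRX2* therefore did not share the return of *TRR1*: its ratios were -0.07 and -0.25 in *ncs2*∆*elp6*∆*hel2*∆, below both *ncs2*∆*elp6*∆ pairs. Under library totals alone *TRX2* was called lower as well (log2 -0.34, adjusted p = 0.0309), which made 4 higher and 2 lower.

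Lower disome enrichment in *ncs2*∆*elp6*∆ than in wild type followed by higher enrichment in *ncs2*∆*elp6*∆*hel2*∆ than in *ncs2*∆*elp6*∆ was found for *TSA1*, *AHP1* and *TRR1*, 3 of 9 antioxidant genes. Over all 5016 genes tested in both comparisons, 163 (3.25%) had this pattern. The study, with its own DESeq2 test, named transcripts of this pattern refractory to ribosome-associated quality control and took them as a negative control. The opposite pattern, which the study used to define targets of ribosome-associated quality control, was found for 0 of 9 antioxidant genes and for 135 (2.69%) of all genes. Both comparisons used the *ncs2*∆*elp6*∆ libraries and so are not independent.

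**Figure D4:**
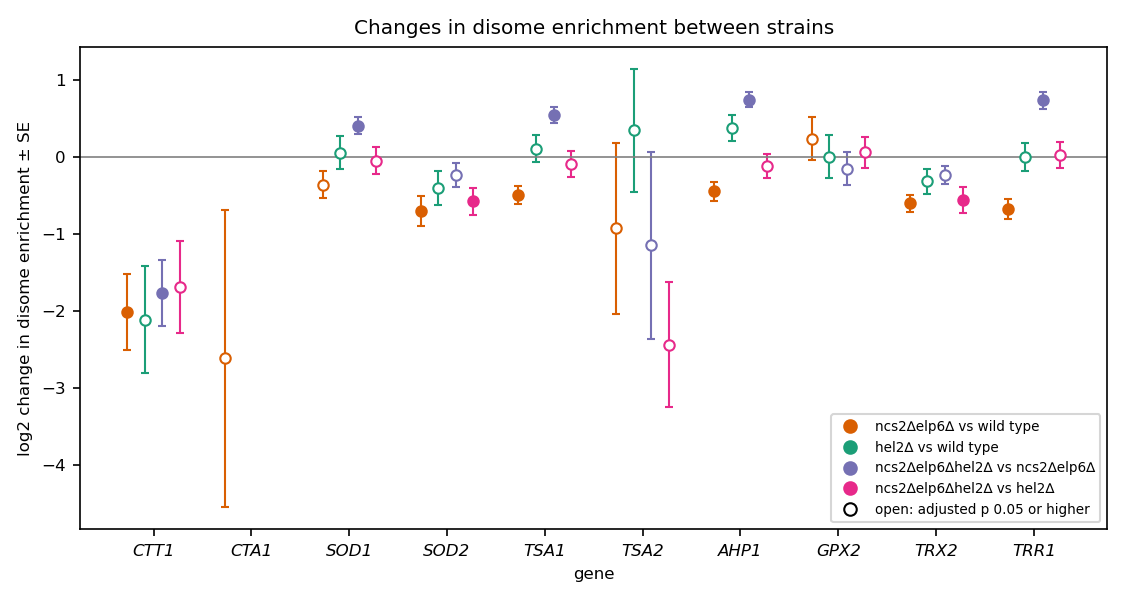
Log2 change in disome enrichment (disomes relative to monosomes) of each antioxidant enzyme gene, with its standard error, in 4 comparisons of strains (colours), filled for an adjusted p under 0.05 and open otherwise. *TSA1*, *AHP1* and *TRR1* are below 0 in *ncs2*∆*elp6*∆ against wild type and above 0 in *ncs2*∆*elp6*∆*hel2*∆ against *ncs2*∆*elp6*∆, and the low-count genes *CTT1*, *TSA2* and *CTA1* have the widest errors.

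Against *hel2*∆, *ncs2*∆*elp6*∆*hel2*∆ had lower disome enrichment of *SOD2* (log2 change -0.58 ± 0.17, edgeR, adjusted p = 0.0374) and *TRX2* (-0.57 ± 0.17, adjusted p = 0.0376). These 2 of 9 genes stood beside 9.09% of 5030 genes, 4.57% higher and 4.51% lower. The ratios of *TRX2* were 0.24 and 0.63 in *hel2*∆ and those of *SOD2* 0.86 and 0.71, all above the *ncs2*∆*elp6*∆*hel2*∆ pairs. Each call was lost on leaving out most of the single libraries, with adjusted p-values up to 0.245 for *SOD2* and 0.196 for *TRX2*. With the replicate number as a block *TRX2* was not called (adjusted p = 0.0601). *CTT1* (-1.69, adjusted p = 0.0811) was called with the same-numbered pairs as blocks (-1.75, adjusted p = 0.0244), without the filter (-1.69, adjusted p = 0.0298) and without the second *ncs2*∆*elp6*∆*hel2*∆ disome library (-3.11, adjusted p = 0.00265). *TSA1*, *AHP1* and *TRR1* were not called, with changes between -0.12 and 0.02.

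The effect of *HEL2* on disome enrichment did not differ between the backgrounds for any of the 9 genes at an adjusted p under 0.05 in edgeR, where 3.40% of 5114 genes were called, 1.54% with a positive and 1.86% with a negative difference. At an unadjusted p under 0.05 there was 1 gene, *TRR1* (difference 0.72 ± 0.22, adjusted p = 0.0665), and DESeq2 called the same gene (adjusted p = 0.0453). The higher enrichment of *TSA1*, *AHP1* and *TRR1* on losing *HEL2* is therefore a change called in one background and not in the other, and for *TSA1* (adjusted p = 0.284) and *AHP1* (adjusted p = 0.360) the test of the difference itself was not passed.

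The other enzymes that work with these 10 genes were described from lists. Of 25 further genes of the thioredoxin, peroxiredoxin and glutathione systems, 12 were called higher and 6 lower in monosomes of *ncs2*∆*elp6*∆ than of wild type, where 26.6% of all genes were higher and 26.4% lower. *GTT2*, a glutathione transferase (log2 change 2.61), and *GPX1*, a glutathione peroxidase with 2 to 30 counts in these libraries (1.42), rose most, and the glutaredoxins *GRX6* (-0.74) and *GRX3* (-0.62) fell most. *TRX1*, the twin of *TRX2*, was called lower (-0.23). By library totals alone 18 were higher and 2 lower. The change of *TRX1* was no larger than the move of the all-gene median on that scale (to 0.27), so that its call depended on the scaling.

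*SRX1* encodes sulfiredoxin, which reactivates peroxiredoxins after overoxidation, and its level set *ncs2*∆*elp6*∆*hel2*∆ apart. It had 40.1 and 33.9 CPM there, 6.23, 8.35 and 10.7 in *ncs2*∆*elp6*∆, 5.23, 4.83 and 6.41 in wild type and 3.72 and 4.47 in *hel2*∆. All 8 other libraries were thus far below both *ncs2*∆*elp6*∆*hel2*∆ ones. The log2 change was 2.18 ± 0.18 against *ncs2*∆*elp6*∆ (edgeR, adjusted p = 4.54e-07) and 3.10 ± 0.23 against *hel2*∆ (adjusted p = 3.42e-17). As for *TSA2*, the effect of *HEL2* differed between the backgrounds (2.56 ± 0.36, adjusted p = 3.49e-04), whereas *TSA1*, the main known partner of sulfiredoxin, was lowest in these libraries.

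In the same *ncs2*∆*elp6*∆*hel2*∆ against *ncs2*∆*elp6*∆ comparison, *SRX1* was the 1 gene of 25 called higher, and 7 were lower, led by the methionine sulfoxide reductase gene *MXR2* (-0.77) and the mitochondrial peroxiredoxin gene *PRX1* (-0.59), or 1 higher and 2 lower with library totals alone. Of all genes, 12.0% were higher and 12.2% lower in this comparison. Beside 14.7% higher and 17.2% lower of all genes, the *hel2*∆ strain had 0 higher and 6 lower of 24 against wild type, again led by *MXR2* (-0.79). Library totals alone turned this last count into 8 higher and 1 lower, so that its direction depended on the scaling. Against *hel2*∆, *ncs2*∆*elp6*∆*hel2*∆ had 10 higher and 5 lower of 24, with *GTT2* (3.16) and *SRX1* leading. Of all genes, 22.5% were higher and 21.7% lower there, so that the lower count was close to the share over all genes.

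Regulators and metal chaperones were a list of 10 genes. *MSN4*, a general stress activator, had log2 changes of 1.55 ± 0.23 in *ncs2*∆*elp6*∆ against wild type (edgeR, adjusted p = 0.00227), 0.29 in *ncs2*∆*elp6*∆*hel2*∆ against *ncs2*∆*elp6*∆ (adjusted p = 0.0465) and 0.90 against *hel2*∆ (adjusted p = 1.03e-09). *YAP1* rose by 0.65 ± 0.07 in *ncs2*∆*elp6*∆ (adjusted p = 2.1e-06) and by 0.79 in *ncs2*∆*elp6*∆*hel2*∆ against *hel2*∆ (adjusted p = 2.05e-09). In *ncs2*∆*elp6*∆ against wild type 3 of the 10 were higher and 2 lower, the copper chaperone gene *ATX1* (-0.82) and the transcription factor gene *STB5* (-0.75), or 5 higher and 2 lower with library totals alone. These counts were close to the shares over all genes, 26.6% higher and 26.4% lower.

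*CCS1*, which loads copper into Sod1, fell together with *SOD1* on the loss of *HEL2*. It changed by -0.42 ± 0.08 in *hel2*∆ against wild type (edgeR, adjusted p = 7.46e-04) and by -0.58 ± 0.09 in *ncs2*∆*elp6*∆*hel2*∆ against *ncs2*∆*elp6*∆ (adjusted p = 3.22e-04). With library totals alone 0 of the 10 listed genes were called lower in *hel2*∆ against wild type. The *CCS1* call in *hel2*∆ was thus lost on that scale, whereas that of *SOD1* was kept. In *ncs2*∆*elp6*∆ against wild type, where *SOD1* rose, *CCS1* was not called (0.07, adjusted p = 0.456).

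Of 8 other known Yap1 targets, 6 were higher and 1 lower in *ncs2*∆*elp6*∆ than in wild type. Of all genes, 26.6% were higher and 26.4% lower. The median log2 change of the 8 targets was 1.26. The old yellow enzyme gene *OYE3* (2.58) and the transporter gene *ATR1* (2.41) led, and *TAL1*, a pentose phosphate enzyme gene (-1.13), was the one lower. Against *ncs2*∆*elp6*∆, *ncs2*∆*elp6*∆*hel2*∆ had 2 higher and 5 lower, beside 12.0% higher and 12.2% lower of all genes. *OYE3* had 0 counts in both *hel2*∆ monosome libraries and 28 and 75 in *ncs2*∆*elp6*∆*hel2*∆, at least 13.4-fold higher when set against a floor of 3 counts per library. The *hel2*∆ strain had 0 higher and 4 of 7 lower against wild type, or 1 higher and 2 lower with library totals alone. Of all genes, 14.7% were higher and 17.2% lower there. In *ncs2*∆*elp6*∆*hel2*∆ against *hel2*∆ 6 of 7 were higher and 1 lower, beside 22.5% higher and 21.7% lower of all genes.

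Of 12 general stress genes under Msn2 and Msn4, the group to which *CTT1* belongs, 10 were higher and 0 lower in *ncs2*∆*elp6*∆ than in wild type (median 0.87), led by the small stress protein gene *HSP12* (4.47) and the aldehyde dehydrogenase gene *ALD3* (4.17). The *hel2*∆ strain had 4 of 11 higher and 0 lower, with library totals alone 7. In *ncs2*∆*elp6*∆*hel2*∆ against *ncs2*∆*elp6*∆ 4 were higher and 0 lower, led by the chaperone gene *HSP26* (2.82) and *SPI1* (1.86), with library totals alone 7 higher. Against *hel2*∆ 9 were higher and 3 lower. Of all genes, 26.6%, 14.7%, 12.0% and 22.5% were called higher in these comparisons, in the order given. The shares called lower were 26.4%, 17.2%, 12.2% and 21.7%. *CTT1* was called higher in each of these comparisons, although the *hel2*∆ call was lost under the settings given above.

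No general stress gene was called higher for disome enrichment in any of the 4 comparisons of strains, and part of the list was called lower. In *ncs2*∆*elp6*∆ against wild type 3 of 12 were called lower and 0 higher, with *HSP12* at -1.78 and *GLK1*, a glucokinase gene, at -1.25. In *ncs2*∆*elp6*∆*hel2*∆ against *ncs2*∆*elp6*∆ 10 of 12 were lower and 0 higher, among them *ALD3* (-2.56) and *HSP26* (-2.09). For *hel2*∆ against wild type 6 of 11 were lower and 0 higher. For *ncs2*∆*elp6*∆*hel2*∆ against *hel2*∆ 6 of 12 were lower and 0 higher. The shares of all genes called lower for disome enrichment were 8.68%, 8.17%, 2.80% and 4.51% in these comparisons, in the order given. The list was written with the behaviour of *CTT1* and other results of these data known, and its counts are a description beside the shares over all genes given above.

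The 25 genes of the thioredoxin, peroxiredoxin and glutathione systems did not show the pattern of *TSA1*, *AHP1* and *TRR1* as a group. In *ncs2*∆*elp6*∆ against wild type 3 were called higher for disome enrichment and 1 lower, beside 18.7% of all genes in either direction, with *GRX2*, a glutaredoxin gene, at 1.63 and *GLR1*, the glutathione reductase gene and counterpart of *TRR1*, at -0.66 (edgeR, adjusted p = 0.00265). In *ncs2*∆*elp6*∆*hel2*∆ against *ncs2*∆*elp6*∆ 1 of 24 was higher and 4 were lower (0 and 6 with library totals alone), beside 8.95% and 8.17% of all genes. *TRX1* was among the lower ones there (-0.53, adjusted p = 0.00112) and, unlike *TRX2*, had a called decrease in *hel2*∆ against wild type (-0.72, adjusted p = 0.0138).

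**Figure D5:**
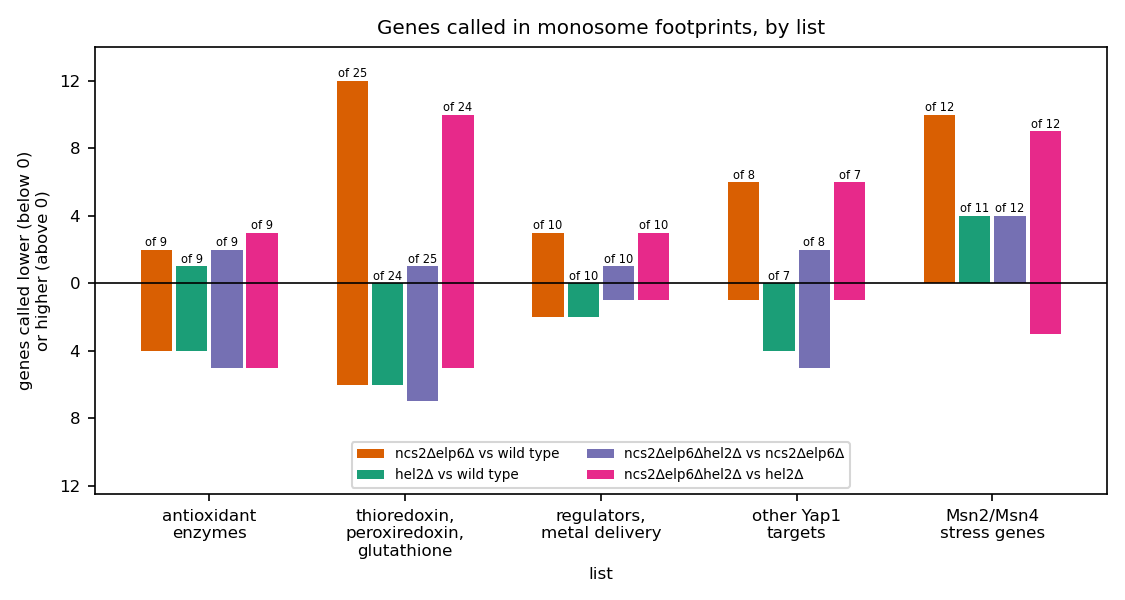
Number of genes called higher (bars above 0) or lower (bars below 0) in monosome footprints for the antioxidant enzymes and 4 related lists, in 4 comparisons of strains (colours), with the number tested written above each bar. Of the Msn2/Msn4 stress genes 10 of 12 are higher in *ncs2*∆*elp6*∆ against wild type, where 4 of the 9 antioxidant enzymes tested are lower.

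The 10 genes did not vary together over the 10 monosome libraries. On log2 normalised CPM, the highest correlation between members was that of *TSA1* with *TRR1* (Pearson r = 0.993), followed by *TSA1* with *AHP1* (r = 0.957) and *AHP1* with *TRR1* (r = 0.934), while *CTT1* and *SOD1* had r = 0.187. These values are descriptions over 10 libraries that share strains, and they follow depth in so far as the libraries without *HEL2* were shallow.

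Among all 5345 genes that passed the filter, the gene outside the set whose log2 levels were most like those of *CTT1* was *MSC1* (r = 0.986), that of *SOD1* was *MVD1* (r = 0.987) and that of *AHP1* was *CDC60* (r = 0.988). *GUA1* was the most similar gene to both *TSA1* (r = 0.989) and *TRR1* (r = 0.990). The most similar genes to *TRX2* and *GPX2* were *VMA7* (r = 0.948) and *PMP2* (r = 0.947). *SOD2* with *FIN1* (r = 0.909) and *TSA2* with *KCS1* (r = 0.875) had the weakest best matches.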

How the data were processed

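The deposited tables hold the counts of footprints that the authors obtained for each open reading frame, not normalized, with monosomes and disomes in separate tables. The authors trimmed adapters and linker bases, removed noncoding RNA reads with STAR 2.5.3a and assigned uniquely mapped sense reads to open reading frames with Bowtie 1.2.3 (versions and the sacCer3 build per the submitters' processing notes). No removal of PCR duplicates is stated. Replicate libraries differed by more than counting noise (chi-square per degree of freedom 1.12 to 22.2) and were kept as separate samples. The study calls them biological replicates; the labels only number them, and p-values measure the spread between these libraries.

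Changes were tested by quasi-likelihood in edgeR 4.0.16 (R 4.3.3; glmQLFTest, TMM, filterByExpr, robust), in fits of the strains compared over the whole table, with Benjamini-Hochberg adjustment over all genes tested. Disome enrichment was the interaction of library type and genotype. For both measures, the tests of *ncs2*∆*elp6*∆ against wild type and of the difference of *HEL2* effects were first checked on simulated counts. These counts had the same dispersion for every gene, and the other comparisons of strains were not simulated. Alternatives were DESeq2 1.42.0, other scalings, no filter, equal depth, a replicate block, blocks of same-numbered monosome and disome libraries and leaving out each library; scaling by library totals alone was added after seeing the data. Groups and numbers came from sample titles.

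All 10 genes are named; of the other lists, up to 2 called genes per direction and comparison, and for each member the most similar gene over the monosome libraries; *TRX1* and *CCS1* were also named outside this rule, after their values were seen. The members and lists were chosen with earlier results of these data known. Gene positions and lengths are from the RefSeq table of R64, in which 5716 of the 6085 monosome identifiers were found. Sequences were not used here.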

Additional observations from a re-analysis of the deposited data

Results flagged for a closer look

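*TSA2*, which encodes the minor cytosolic peroxiredoxin, stood out because the effect of deleting *HEL2* on its monosome footprints differed between the backgrounds by 1.64 on the log2 scale (edgeR, adjusted p = 0.0141). Deleting *HEL2* went with a log2 change of -0.40 in cells with the tRNA modifications and of 1.23 in cells without them. The 10 libraries held 18 to 120 *TSA2* counts each, and the call was lost without the second *hel2*∆ library (difference 1.27, adjusted p = 0.164) and without the second *ncs2*∆*elp6*∆*hel2*∆ library (1.48, adjusted p = 0.127). DESeq2 gave no adjusted p for this gene.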

How the results depend on the processing

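Of the other settings that kept every library, 291 of 316 values of called genes kept their direction and call, 22 lost the call and 3 changed sign. Against *hel2*∆, the monosome count of 8 called genes in *ncs2*∆*elp6*∆*hel2*∆ was 5 with DESeq2 and 5 with all 4 strains in the fit. The disome enrichment count of 2 in that comparison was 1 with DESeq2, 1 with library totals, 1 with the replicate block, 4 without the filter and 4 in disome libraries alone. The count of 0 for the difference of *HEL2* effects on enrichment was 1 with DESeq2 and with library totals. With same-numbered monosome and disome libraries of a strain as blocks, the enrichment counts of the 4 comparisons of strains, 6, 0, 5 and 2 in the order reported, were 5, 0, 5 and 3. The replicate block changed no other count by over 1.5 times. Between strains, same-numbered monosome libraries, or same-numbered disome to monosome ratios, did not deviate together (correlations -0.24 to 0.05). Whether the monosome and disome libraries of a strain deviated together was not tested. Leaving out single libraries gave monosome counts of 5 to 7 (*ncs2*∆*elp6*∆ against wild type), 3 to 6 (*hel2*∆), 5 to 8 (*ncs2*∆*elp6*∆*hel2*∆ against *ncs2*∆*elp6*∆), 4 to 8 (against *hel2*∆) and 0 to 1 (difference), and enrichment counts of 3 to 7, 0 to 1, 3 to 5, 0 to 2 and 0 to 2.

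Sign changes with library totals in monosomes were *SOD2* 0.24, *TSA1* 0.00025, *TRX2* 0.20 and *TRR1* 0.11 in *ncs2*∆*elp6*∆ and *SOD2* 0.11 in *hel2*∆, each against wild type, and *SOD1* -0.079 in the difference. For enrichment they were *SOD1* -0.060, *TSA1* -0.013 and *GPX2* -0.11 in *hel2*∆ against wild type and *SOD1* 0.044 in *ncs2*∆*elp6*∆*hel2*∆ against *hel2*∆. The near-zero value of *TRR1* became 0.018 (DESeq2), 0.016 (RLE), 0.018 (TMM within type) and 0.0097 (no filter) in *hel2*∆ against wild type, and -0.0077 (DESeq2) and -0.011 (RLE) in *ncs2*∆*elp6*∆*hel2*∆ against *hel2*∆. Disome libraries alone, which measure another quantity, gave *CTT1* 1.03 and *GPX2* -0.24 (*ncs2*∆*elp6*∆ against wild type), *SOD1* -0.54, *TSA1* -0.28, *TSA2* -0.016 and *AHP1* -0.15 (*hel2*∆ against wild type), *SOD1* -0.16 and *GPX2* 0.13 (*ncs2*∆*elp6*∆*hel2*∆ against *ncs2*∆*elp6*∆), and *CTT1* 0.72, *SOD1* 0.32, *GPX2* -0.25 and *TRR1* -0.27 (against *hel2*∆).

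Called values also lost their call in part of the fits that left out 1 library, some of which kept only 1 library of a type in a strain. In these fits the sign changed only for values that were not called. In monosomes these were *SOD2* (-0.11 to 0.046 in *ncs2*∆*elp6*∆, -0.31 to 0.013 in *hel2*∆) and the *SOD1* difference (-0.024 to 0.12). For enrichment in *ncs2*∆*elp6*∆ against wild type they were *CTA1* (-8.20 to 4.40), *GPX2* (-0.18 to 0.66) and *TSA2* (-1.75 to 0.96). In *hel2*∆ against wild type they were *GPX2* (-0.35 to 0.46), *SOD1* (-0.20 to 0.36), *TRR1* (-0.23 to 0.20), *TSA1* (-0.091 to 0.30) and *TSA2* (-0.41 to 2.26), and in *ncs2*∆*elp6*∆*hel2*∆ against *hel2*∆ *GPX2* (-0.28 to 0.30), *SOD1* (-0.24 to 0.15), *TRR1* (-0.17 to 0.23) and *TSA1* (-0.27 to 0.083). In the difference they were *CTT1* (-1.11 to 0.99), *GPX2* (-0.64 to 0.19), *SOD2* (-0.13 to 0.37) and *TRX2* (-0.11 to 0.26). The causes were not tested. Depth limited *CTA1* throughout and *TSA2* and *CTT1* in disomes, where all 3 had 45 counts or fewer per library.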
